A study of Caenorhabditis elegans with 2 samples.

Results

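The AP-1 site is the heptamer TGACTCA, which reads TGAGTCA on the other strand. Among the 30000 regions of the replicate 1 list of FOS-1 chromatin immunoprecipitation (ChIP-seq), 631 regions carried an exact match on the ce11 genome with the whole heptamer inside the window from 100 bp left to 100 bp right of the region's summit. Within the list, the reference sequence around each summit chose them. Signal height, rank and replication took no part in the choice, but the summit positions that set the windows come from the ChIP-seq itself. The ChIP-seq was made in 2 biological replicates of whole L4 larvae of mixed sex, with males and females pooled. The strain was OP304, unc-119(ed3) III; wgIs304, in which an inserted transgene gives an eGFP-tagged fos-1, and both replicates were set against the same control alignment. The replicates formed 1 group, so site-bearing regions were set against the other 29369 regions of the list and against flanking windows of equal width centred 1000 bp to each side of each summit.

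FOS-1 is the worm relative of mammalian Fos, a basic leucine zipper (bZIP) protein. Fos proteins bind DNA as dimers, classically with Jun, and each partner contacts one arm of the near-palindromic AP-1 site. In C. elegans fos-1 is known for its role in the anchor cell, which breaches the basement membrane beneath the vulva, and for its role in the spermatheca. Whole animals were used, so a region's value is a sum over all tissues.

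The sites of 10 high-ranking regions are given first, to show the heptamer in its sequence context. They are the 10 of best rank in replicate 1 on chromosomes II to V and X that had a single site in the window and both a replicate 2 summit and a pooled-list summit within 200 bp. Their replicate 2 ranks run from 17 to 6172. Each line gives the gene with the nearest protein-coding 5' end, the ce11 position and the plus-strand RefSeq genome sequence, with the AP-1 heptamer in capitals.
cebp-1 (chrX:1454570-1454610): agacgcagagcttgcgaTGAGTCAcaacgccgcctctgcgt
srz-62 (chrIV:3899946-3899986): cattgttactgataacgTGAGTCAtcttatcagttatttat
F56C3.1 (chrX:1389441-1389481): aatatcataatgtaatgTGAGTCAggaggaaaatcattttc
lec-6 (chrIII:600680-600720): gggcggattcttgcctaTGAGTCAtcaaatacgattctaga
C06B3.7 (chrV:13909597-13909637): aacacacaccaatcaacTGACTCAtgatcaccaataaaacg
vps-60 (chrV:8606385-8606425): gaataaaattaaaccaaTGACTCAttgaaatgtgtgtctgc
F25B5.5 (chrIII:5944111-5944151): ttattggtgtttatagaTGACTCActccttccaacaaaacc
C30E1.4 (chrX:16930958-16930998): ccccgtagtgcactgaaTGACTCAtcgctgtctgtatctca
vhp-1 (chrII:5332997-5333037): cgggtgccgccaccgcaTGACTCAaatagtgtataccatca
tag-325 (chrIII:4796283-4796323): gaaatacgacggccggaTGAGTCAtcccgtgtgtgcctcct

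In 16 of the 631 regions the window held 2 sites, and in 1 region it held 3. The 4 windows with 2 sites among the 25 regions of best rank are printed whole, from 100 bp left to 100 bp right of the summit, to show how the sites lie relative to each other. The capitals again mark the AP-1 heptamers.
F09A5.3 (chrX:13143893-13144093): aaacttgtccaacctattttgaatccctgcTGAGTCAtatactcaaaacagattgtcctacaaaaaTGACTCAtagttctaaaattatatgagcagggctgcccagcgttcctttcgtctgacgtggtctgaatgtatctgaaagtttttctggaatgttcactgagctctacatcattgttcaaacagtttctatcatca
txt-19 (chrIV:12842265-12842465): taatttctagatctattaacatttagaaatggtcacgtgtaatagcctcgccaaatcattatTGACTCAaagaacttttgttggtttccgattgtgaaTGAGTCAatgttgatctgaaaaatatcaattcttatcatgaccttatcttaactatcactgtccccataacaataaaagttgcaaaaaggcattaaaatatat
dlg-1 (chrX:5480427-5480627): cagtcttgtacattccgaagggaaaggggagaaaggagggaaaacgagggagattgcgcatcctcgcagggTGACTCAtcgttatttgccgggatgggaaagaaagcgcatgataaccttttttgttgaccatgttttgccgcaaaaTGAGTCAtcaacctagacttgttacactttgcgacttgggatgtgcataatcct
mdl-1 (chrX:6748105-6748305): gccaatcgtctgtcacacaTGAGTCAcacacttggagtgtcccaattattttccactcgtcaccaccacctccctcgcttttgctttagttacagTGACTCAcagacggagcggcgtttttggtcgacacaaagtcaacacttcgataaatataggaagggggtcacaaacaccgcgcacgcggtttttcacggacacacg

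Strong regions carried the site more often than weak ones. In replicate 1 the site was present in 26 of the 500 regions of highest signal (5.20%, exact Clopper-Pearson 95% interval 3.42 to 7.53) and in 189 of the 10000 regions of lowest signal (1.89%). In the flanking windows of the 500 strongest regions it was present in 21 of 1000 windows (2.10%, 1.30 to 3.19). In 7 rank bins that end at ranks 500, 1000, 2500, 5000, 10000, 20000 and 30000 the share was 5.20, 3.80, 3.13, 2.48, 2.02, 1.87 and 1.89%. The replicate 2 list gave the same order at the top, with 27 of 500 regions (5.40%, 3.59 to 7.76) in the first bin, and 3.60, 3.33, 2.28, 2.20, 2.12 and 2.10% in the bins after it. All intervals here cover counting error only, and neighbouring regions are not independent of each other.

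**Figure D1:**
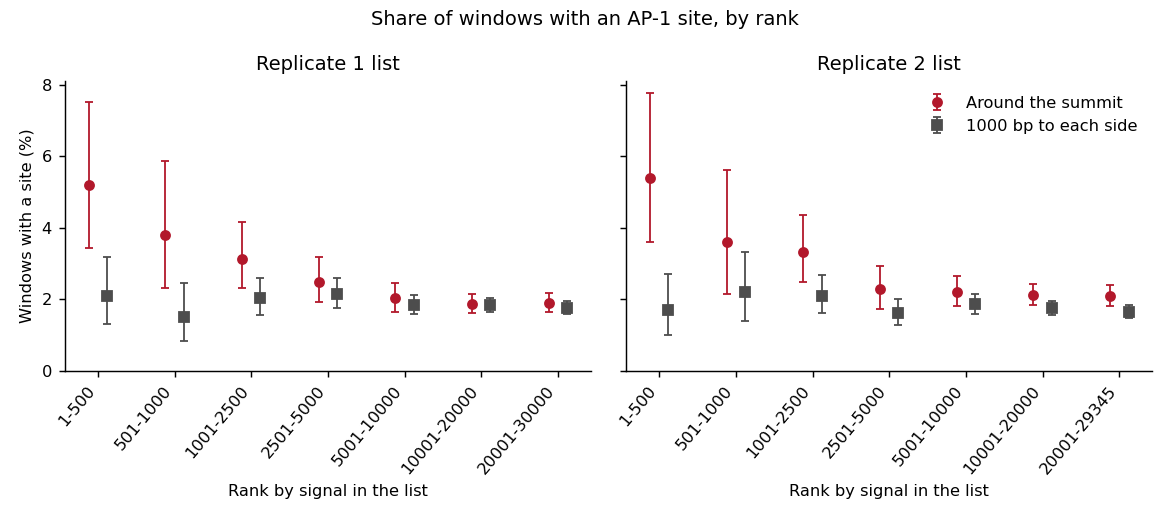
Share of windows with an AP-1 site (y axis, percent) by rank in the replicate 1 list (left) and the replicate 2 list (right). Circles are windows around summits, squares are windows 1000 bp to each side, and bars are exact 95% intervals; in ranks 1 to 500 the summit windows stand at 5.20% and 5.40%.

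Most site-bearing regions were weak. Their median rank was 13307, against 15035 for regions without a site, and their median signal, in the peak caller's own deposited units, was 6.88 against 6.58. A −log10 q-value of at least 1 was given to 41 of the 631 regions with a site (6.50%) and to 858 regions without a site (2.92%). Over the whole list, 2.10% of summit windows (1.94 to 2.27) and 1.85% of flanking windows (1.74 to 1.96) held a site. In the replicate 2 list these shares were 2.28% (2.12 to 2.46) and 1.75% (1.65 to 1.86). The replicate lists hold peaks and background together, as their description says. Summit and flanking intervals were apart in ranks 1 to 500 of each list and overlapped in each later bin of both. Below rank 5000 taken as a whole, the shares were 1.91% (1.74 to 2.09) at summits and 1.81% (1.69 to 1.93) in flanks in replicate 1, and 2.13% (1.95 to 2.32) at summits and 1.73% (1.62 to 1.85) in flanks in replicate 2.

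The nuclear genome holds 9580 copies of the heptamer, and 50 of them (0.522%, 0.388 to 0.688) lay in the summit window of a replicate 1 region at rank 1000 or better. The related heptamers TGAATCA and TGATTCA, which differ from the site at the centre base only, number 21304, and 60 of those (0.282%, 0.215 to 0.362) lay in such a window. In replicate 2 the shares were 0.480% (0.352 to 0.640) for the AP-1 site and 0.263% (0.199 to 0.341) for the heptamers with A or T at the centre. The centre base thus went with a higher share in both replicates, with intervals that do not overlap, while most copies of either heptamer were under no strong region. Over the whole replicate 1 list, 6.77% of AP-1 sites (6.28 to 7.30) and 6.03% of the others (5.71 to 6.36) lay in a summit window. In ranks 1 to 1000 of replicate 1, the heptamers with A or T at the centre also favoured summit over flanking windows. Their shares were 5.40% (4.08 to 6.99) and 3.25% (2.52 to 4.12), with overlapping intervals. In replicate 2 these shares were 4.90% (3.65 to 6.43) and 4.45% (3.59 to 5.45). AP-1 sites were at these ranks in 4.50% of summit and 1.80% of flanking windows in replicate 1. In replicate 2 they were in 4.50% and 1.95%.

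The strongest site-bearing region lay in the promoter of cebp-1, which encodes a C/EBP-like bZIP factor that acts downstream of the DLK-1 kinase in axon regeneration. At chrX:1454415-1454784, its replicate 1, replicate 2 and pooled ranks were 2, 17 and 2, and its signals in the same lists were 72.6, 62.2 and 132. The site centre was 10 bp from the replicate 1 summit, and the summit was 732 bp upstream of the nearest 5' end. The region was therefore strong in each replicate separately, and it is also in the set that passed the authors' irreproducible discovery rate (IDR) threshold.

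The next region by rank lay near srz-62, a member of a chemoreceptor gene family, at chrIV:3899795-3900164. Its rank was 32 in replicate 1, 64 in replicate 2 and 31 in the pooled list, with signals of 35.7, 30.2 and 63.3. Its site centre was 14 bp from the summit. In both replicates its signal was less than that of the cebp-1 region, and both regions are in the IDR set.

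Further promoter regions among the 25 of best rank lay at lec-6 and lec-1, which both encode galectins, or sugar-binding proteins. The lec-6 promoter region ranked 72 in replicate 1 and 138 in replicate 2, with signals of 25.2 and 22.5. The lec-1 promoter region ranked 339 and 1236, with signals of 16.9 and 13.4, and its summit was 11 bp upstream of a 5' end. Only the lec-6 region is in the IDR set. The promoter of tba-2, an alpha-tubulin gene, ranked 92 in replicate 1 and 84 in replicate 2, with signals of 23.6 and 27.2. The promoter of vps-60, which encodes a relative of the ESCRT-III membrane-remodelling proteins, ranked 113 and 1526, with signals of 22.5 and 12.9. The replicate 2 summit matched there lay 193 bp away, close to the limit of 200 bp, so these ranks may belong to different summits.

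Other regions among the 25 ranked lower in replicate 2 than in replicate 1. Near dlg-1, the Discs large scaffold of epithelial junctions, an intronic region with 2 sites ranked 303 in replicate 1 and 1852 in replicate 2. Near aakg-3, a gamma subunit of AMP-activated kinase, an intergenic region 4718 bp from the 5' end ranked 325 and 875. A region shared by the promoters of mes-6, a subunit of the Polycomb repressive complex, and tag-77 ranked 326 in replicate 1 but 15081 in replicate 2. Near mdl-1, the worm relative of the Mad partners of Max, an intronic region with 2 sites, 5854 bp from the 5' end, ranked 425 and 1101.

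Not every high rank was repeated. The regions nearest rsd-3, an epsin-like gene needed for the spread of RNA interference, F26E4.7, nex-1, an annexin gene, and dmd-8, a gene of the DM-domain family, ranked 148, 153, 284 and 374 in replicate 1 and had no replicate 2 summit within 200 bp. The regions near nex-1 and dmd-8 had no pooled summit either. The regions nearest F56C3.1, C06B3.7, F09A5.3, Y18D10A.4, C30E1.4, txt-19 and tag-325 ranked between 67 and 268 in replicate 1 and between 70 and 296 in replicate 2. The region nearest F25B5.5 ranked 137 and 6172, that nearest arrd-6, an arrestin-domain gene, 294 and 693, and that nearest ZK546.2 301 and 896. Among the 25 regions of best rank, whose lowest rank was 425, 21 had a replicate 2 summit, 23 a pooled summit, and 13 were in the IDR set.

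The gene vhp-1 encodes a dual-specificity phosphatase that inactivates the stress kinases KGB-1 and PMK-3. It lies on the plus strand at chrII:5323276-5340829 and holds 14 AP-1 sites in 17554 bp, or 7.98 per 10 kb, against 0.955 per 10 kb over the nuclear genome. It is 1 of 2 genes with at least 14 sites among 19973 protein-coding genes on the nuclear chromosomes, and the other gene is 102756 bp long. vhp-1 was singled out after these values were seen, because it was the nearest gene to 3 site-bearing regions at rank 5000 or better of replicate 1, more than any other gene.

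The best-ranked site-bearing region of vhp-1, in an intron, ranked 241 in replicate 1, 120 in replicate 2 and 137 in the pooled list, with signals of 18.2, 23.4 and 37.0. Its site centre was 93 bp from the replicate 1 summit. The site-bearing regions at ranks 517 and 1498 had sites 1 and 9 bp from the summit but ranked 13002 and 16184 in replicate 2, and those at ranks 17509 and 19943 had no replicate 2 summit within 200 bp. The region at rank 19943 and its site are intergenic, past the 3' end of the gene. The strongest region in the gene, at chrII:5336915-5337284, ranked 41 in replicate 1, 29 in replicate 2 and 23 in the pooled list, with signals of 32.7, 45.4 and 71.3. It is not among the 631, because the centre of its nearest site was 113 bp from the summit and the rule admits centres up to 97 bp. A further strong intronic region at rank 381, which ranked 91 in replicate 2, had its nearest site 1792 bp away. In vhp-1, then, the strongest summits lay in introns, with a site near some of them and not near others.

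Site-bearing regions had a counterpart in the other replicate more often than regions without a site, but the size of that difference depended on which replicate gave the regions. In replicate 1, 196 of 631 regions with a site (31.1%, 27.5 to 34.8) and 6889 of 29369 without (23.5%, 23.0 to 23.9) had a replicate 2 summit within 200 bp, and 23.6% of all regions did. Taken from the replicate 2 list, the shares with a replicate 1 summit were 176 of 670 regions with a site (26.3%, 23.0 to 29.8) and 6917 of 28675 without (24.1%, 23.6 to 24.6), and these intervals overlap. Strong regions carried the site more often and were also matched more often, so the shares were compared within rank bins as well. In replicate 1 the share matched was higher with a site in 7 of 7 bins, though the intervals overlapped in all 7. In replicate 2 it was higher with a site in 3 of 7 bins.

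The single bin in which the intervals were apart was ranks 1 to 500 of replicate 2, where 23 of 27 regions with a site (85.2%, 66.3 to 95.8) and 288 of 473 without (60.9%, 56.3 to 65.3) were matched in replicate 1. In ranks 1 to 500 of replicate 1 the shares were 80.8% (60.6 to 93.4) with a site and 72.6% (68.3 to 76.5) without. Of the 45 site-bearing regions at rank 1000 or better in replicate 1, 18 (40.0%, 25.7 to 55.7) matched a replicate 2 region that was itself at rank 1000 or better. Of the 955 such regions without a site, 205 (21.5%, 18.9 to 24.2) did, and these intervals do not overlap. Site-bearing regions also ranked better within these 1000, with a median rank of 339 against 504 without a site. In ranks 1 to 500 the shares were 57.7% (36.9 to 76.6) with a site and 33.1% (28.9 to 37.6) without, and from there to rank 1000 they were 15.8% (3.38 to 39.6) with a site and 9.98% (7.45 to 13.0) without, with overlapping intervals in both. The cebp-1, srz-62, lec-6, tba-2 and first vhp-1 regions are among the 18.

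**Figure D2:**
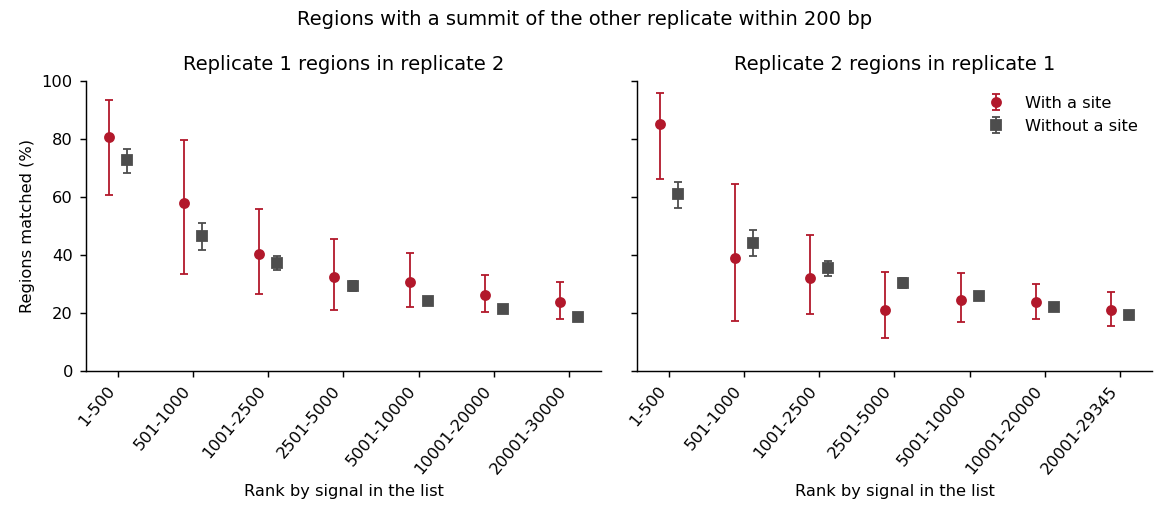
Share of regions with a summit of the other replicate within 200 bp (y axis, percent) by rank, for replicate 1 regions (left) and replicate 2 regions (right). Circles are regions with a site, squares regions without, and bars are exact 95% intervals; regions with a site stand higher in 7 of 7 bins on the left and in 3 of 7 on the right.

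In replicate 1, a pooled-list summit lay within 200 bp of 101 of 631 regions with a site (16.0%, 13.2 to 19.1) and of 3060 of 29369 regions without (10.4%, 10.1 to 10.8), with 10.5% over all regions. Within rank bins of replicate 1 the share was higher with a site in 6 of 7, and the intervals overlapped in 7 of 7. In ranks 1 to 500, the exception, it was 88.5% with a site and 90.5% without, and the widest gap was at ranks after 5000 up to 10000, with 15.8% (9.33 to 24.4) with a site and 10.3% (9.43 to 11.2) without. Taken from the replicate 2 list, the shares were 13.7% (11.2 to 16.6) with a site and 11.1% (10.8 to 11.5) without, with overlapping intervals. There the share was higher with a site in only 3 of 7 bins, so the order within bins was not repeated. The pooled list was made from both replicates, so it is not independent of either. In replicate 1, an IDR summit lay within 200 bp of 19 regions with a site (3.01%, 1.82 to 4.66) and of 251 without (0.855%, 0.753 to 0.967), with 0.900% over all regions. At ranks 1 to 1000 the shares were 35.6% (21.9 to 51.2) with a site and 21.9% (19.3 to 24.6) without, and at ranks 1 to 500 they were 13 of 26 with a site (29.9 to 70.1%) and 181 of 474 without (38.2%, 33.8 to 42.7), with overlapping intervals. Of those 19 regions, 3 lay outside ranks 1 to 1000 of replicate 1. Searched in its own windows, the IDR set of 248 regions held 20 with a site.

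**Figure D3:**
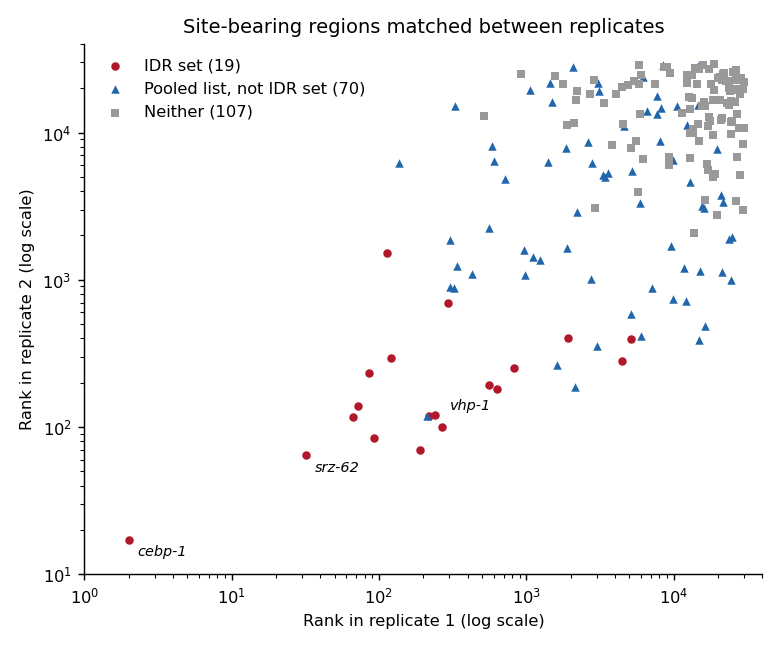
Rank in replicate 1 (x axis) against rank in replicate 2 (y axis), both on log scales, for the 196 site-bearing regions with a replicate 2 summit within 200 bp. The 19 circles are in the IDR set, the 70 triangles in the pooled list but not the IDR set, and the 107 squares in neither; the cebp-1 region stands alone at ranks 2 and 17.

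Within the 201-bp windows, the sites showed no common concentration at the summit in both replicates. The median distance from site centre to summit was 45 bp in replicate 1, with quartiles of 17 and 70 bp, and 47.5 bp in replicate 2, with quartiles of 23 and 71 bp. Among ranks 1 to 1000 the centre was within 50 bp of the summit in 28 of 45 replicate 1 regions (62.2%, 46.5 to 76.2) and in 18 of 45 replicate 2 regions (40.0%, 25.7 to 55.7). The heptamers with A or T at the centre were within 50 bp in 53.7% (39.6 to 67.4) of their replicate 1 regions and in 55.1% (40.2 to 69.3) of their replicate 2 regions at these ranks. For 22 sites in the summit window of a region at rank 1000 or better in replicate 1 and also in a window of replicate 2, the median distance was 26.5 bp to the replicate 1 summit and 56.0 bp to the replicate 2 summit. The summits themselves were a median of 17.5 bp apart at those sites. Over all 124 sites in a window of both lists, the median distances were 39.0 bp in replicate 1 and 49.0 bp in replicate 2. Of these sites, 65 were nearer the replicate 1 summit, 56 were nearer the replicate 2 summit and 3 were equally near.

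**Figure D4:**
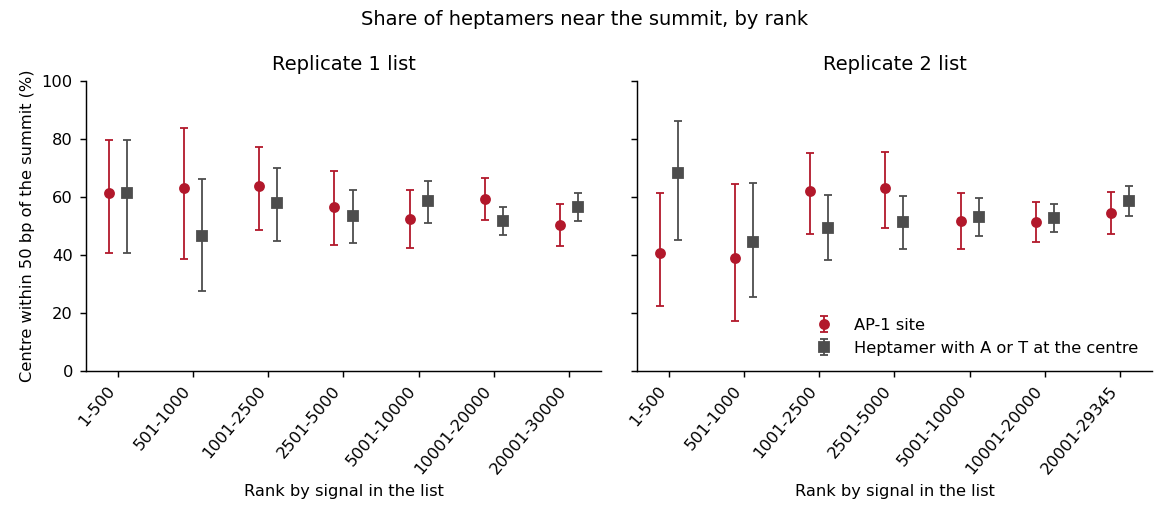
Share of heptamers whose centre lay within 50 bp of the summit (y axis, percent) by rank in the replicate 1 list (left) and the replicate 2 list (right). Circles are AP-1 sites, squares are heptamers with A or T at the centre, and bars are exact 95% intervals; at ranks 1 to 500 AP-1 sites stand at 61.5% on the left and 40.7% on the right.

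At the edge of the rule, 70 regions had their nearest site centre 88 to 97 bp from the summit, with a median rank of 15342, and 42.9% of them were matched in replicate 2. The 52 regions just outside, with a centre at 98 to 107 bp, had a median rank of 13376, and 17.3% of them were matched. These shares rest on 30 and 9 matched regions. Over the whole list, 31.1% of regions with a site and 23.5% without were matched. The cause of the difference at the edge was not tested.

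The bases next to the heptamer differed between strong regions and the genome at large. With the base before the heptamer read on each strand, A made up 28 of 52 flanking bases (53.8%, 39.5 to 67.8) in ranks 1 to 500 of replicate 1, against 31.6% (30.9 to 32.2) over all 9580 sites of the nuclear genome. Replicate 2 gave 29 of 54 (53.7%, 39.6 to 67.4). An A before the heptamer on both strands, which is an A before and a T after it in the lec-6 and vps-60 sequences printed above, was present in 7 of 26 replicate 1 regions (26.9%, 11.6 to 47.8) and 7 of 27 replicate 2 regions (25.9%, 11.1 to 46.3), against 9.91% (9.31 to 10.5) of all sites. T before the heptamer made up 11.5% (4.35 to 23.4) in ranks 1 to 500 of replicate 1 and 14.8% (6.62 to 27.1) in those of replicate 2, against 34.5% (33.8 to 35.1) of all flanking bases. The share of A was 48.9% in ranks 1 to 1000, 42.2% from there to rank 5000 and 35.2% below rank 5000 of replicate 1. The replicates share regions, since 12 of the 26 site-bearing regions in ranks 1 to 500 of replicate 1 matched one in ranks 1 to 500 of replicate 2, so these are not separate sets of sites.

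**Figure D5:**
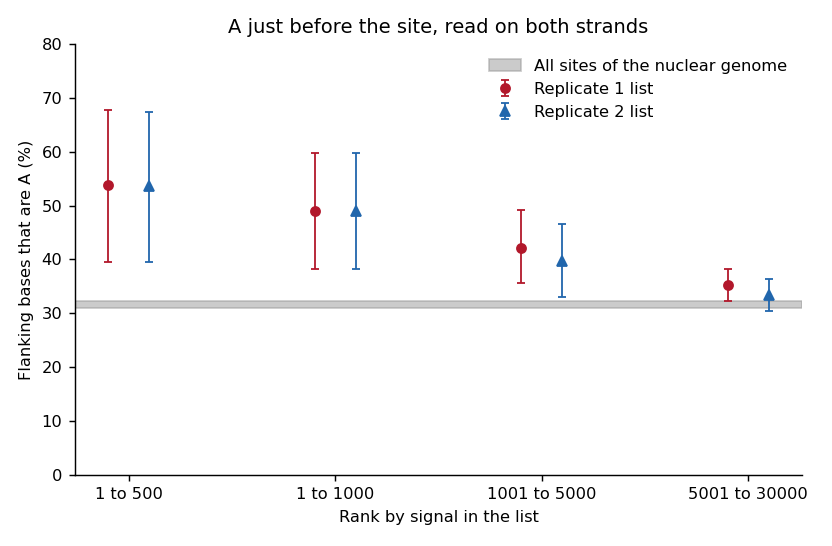
Share of A among the bases just before the AP-1 heptamer, read on both strands (y axis, percent), by rank in the replicate 1 list (circles) and the replicate 2 list (triangles). Bars are exact 95% intervals and the grey band is the interval for all 9580 sites; the share is 53.8% and 53.7% at ranks 1 to 500.

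Over the whole list, site-bearing regions lay near annotated transcript 5' ends more often than the rest, while within rank bins the intervals overlapped. A promoter summit, defined as one no more than 1000 bp before or 200 bp after a protein-coding 5' end, was present in 226 of 631 regions with a site (35.8%, 32.1 to 39.7) and in 29.8% of regions without, with 30.0% over all regions. In replicate 2 the shares were 34.8% (31.2 to 38.5) with a site and 30.9% (30.3 to 31.4) without. At ranks 1 to 1000 of replicate 1, 24 of 45 regions with a site (53.3%, 37.9 to 68.3) and 41.8% (38.6 to 45.0) without had a promoter summit. Within rank bins the share was higher with a site in 7 of 7 bins of replicate 1 and 5 of 7 of replicate 2, with overlapping intervals in all bins of both lists. Copies of the heptamer in promoters lay under strong regions more often than other copies. Of 2783 promoter sites, 25 (0.898%, 0.582 to 1.32) lay under a region at rank 1000 or better, against 25 of 6797 other sites (0.368%, 0.238 to 0.542). Strong regions without a site favoured promoters too, with 41.8% promoter summits at ranks 1 to 1000 and 29.4% after them. This split of sites by place is thus not a comparison of regions with and without a site.

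By place in replicate 1, 48.7% of summits with a site and 36.0% without were intergenic, and 28.5% with a site and 34.4% without were intronic. Coding exons held 19.7% of summits with a site and 23.1% without, and 3' UTRs held 1.11% with a site and 4.73% without. In replicate 2, 48.8% of summits with a site and 39.6% without were intergenic, and 27.2% with a site and 34.5% without were intronic. The 3' UTRs held 2.09% with a site and 5.04% without there. Coding exons of replicate 2 held 18.8% with a site and 18.9% without, so the coding exon difference was not repeated. The heptamer is itself placed unevenly, since 42.1% of all its copies are intergenic and 1.77% are in 3' UTRs. Its part in the difference between regions with and without a site was not tested. The X chromosome held 20.9% of regions with a site and 17.6% of regions without. It also holds 21.4% of all copies of the heptamer, and 6.83% of the copies on X (5.78 to 8.01) and 6.76% of those on autosomes (6.20 to 7.35) lay in a summit window.

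A site-bearing region lay in the promoter of 250 of 19985 protein-coding genes (1.25%), and 610 genes (3.05%) were nearest to such a region. Among 28 genes of the MAP kinase pathways, 3 had one in the promoter. They were vhp-1, dlk-1, which encodes the kinase at the head of the axon regeneration cascade, and let-60, the Ras gene. The vhp-1 promoter regions were those at ranks 517 and 1498, which ranked 13002 and 16184 in replicate 2. Both summits lie in introns, and each counts as a promoter summit through a transcript 5' end inside the gene, not at the gene's own start. The vhp-1 region at rank 241 was not a promoter region. The dlk-1 region, whose summit also lies in an intron, had rank 2875 in replicate 1 and rank 22641 in replicate 2. The let-60 region had ranks 26518 and 22701, so it was weak in both lists. The dlk-1 region had signals of 10.6 and 5.84, and neither of these regions had a pooled summit within 200 bp. Promoter regions with a site in replicate 2 were found for vhp-1, dlk-1 and jkk-1, a Jun kinase kinase gene.

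Among 28 bZIP genes, cebp-1 alone had a site-bearing promoter region in replicate 1, while 17 of the 28 (60.7%) had a promoter region of any kind, against 39.6% of all protein-coding genes. In replicate 2 there were 2, cebp-1 and jun-1, the gene for the worm Jun protein. Among 27 genes of anchor cell invasion and the matrix there were 2 in replicate 1. They were unc-60, an actin-depolymerising factor gene, at ranks 1398 and 6324, and ina-1, an integrin alpha subunit gene, at ranks 14749 and 27080. Among 21 axon and neuronal genes there was 1, unc-33, a relative of the collapsin response mediators, at rank 1850 and with no replicate 2 summit.

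Counts for the other lists are read beside the share over all protein-coding genes, 1.25% in replicate 1 and 1.27% in replicate 2. Of 269 nuclear hormone receptor genes, 3 (1.12%) had a site-bearing promoter region in replicate 1, which is close to the share over all genes. They were nhr-50 at rank 1238, which ranked 1360 in replicate 2, nhr-206 at ranks 1852 and 7844, and nhr-195 at rank 2126 with no replicate 2 summit. In replicate 1 the count was 0 of 24 heavy metal and oxidative stress genes, 0 of 27 chaperone genes, 0 of 19 spermatheca signalling genes, 0 of 156 cuticle collagen genes and 0 of 78 cytosolic ribosomal protein genes. A promoter region of any kind was present in replicate 1 at 51 of the 78 ribosomal protein genes (65.4%) and 52 of the 156 collagen genes (33.3%), against 39.6% of all genes. Replicate 2 had 7 nuclear hormone receptor genes, and it added lfe-2, an inositol trisphosphate kinase gene, and mlc-4, a myosin light chain gene, for the spermatheca list, hsp-90 for the chaperones, rpl-31 for the ribosomal proteins and zmp-1, a matrix metalloprotease gene, for the anchor cell list. With lists this short, a difference of 1 or 2 genes from the share over all genes cannot be read.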

How the data were processed

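The deposited ce11 peak lists of both replicates, the pooled list and the IDR-thresholded set were used. Per the submitters' file descriptions, peaks and background of a replicate were called together on its alignment and a control alignment shared by both. The peak caller, aligner and IDR threshold were not given in the sources used here. The signal of each region and its −log10 q-value are the authors' deposited values, and the scale of the signal is not stated, so signal was used to rank regions within a list. No read counts were used, so the depth is unknown.

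Regions were ranked by signal, and heptamers were searched on the RefSeq genome of the same build as ce11. Each summit window was 201 bp. Genes came from Ensembl release 115. Shares carry exact Clopper-Pearson 95% intervals (scipy 1.17.1), and differences in share Newcombe intervals (statsmodels 0.14.6). No test was run over regions, since regions are not replicates; the replicate 2 list served as the replicate check. With nothing said of separate cultures, the spread between replicates may be technical. Flanking windows were centred 1000 bp away. The site search and summit matching were tested on simulated data.

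Named genes are those nearest the 25 regions of best rank in replicate 1, every bZIP and MAP kinase gene with a site-bearing promoter region, and up to 4 genes of each other list by best rank; genes named from replicate 2 and the counts for vhp-1 were added after their values were seen. Members and gene lists were chosen with earlier results of these data known.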

Additional observations from a re-analysis of the deposited data

How the results depend on the processing

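Of 54 alternatives run on 9 results, 6 counted each site once, which could change nothing because no site lay in more than 1 window. Of the other 48, 35 stayed within the interval of the reported value (for the gene count, within 1.5 times), and none reversed a direction. Only differences in share could reverse, since single shares, distances and gene counts cannot be negative. Taking the regions from replicate 2 (without replicate 1) changed the difference in the share matched to the other replicate, with a site minus without, to 2.15 percentage points against 7.61, and that for the pooled list to 2.59 against 5.59. A window of 50 bp to each side gave 3.20% of ranks 1 to 500 with a site, against 5.20%, and a window of 200 bp gave a pooled difference of 2.73 points. With ranks 1 to 1000 only, the differences were 11.7 points for the other replicate, 2.91 for the pooled list and 11.6 for promoter summits, and all 3 intervals include 0. So do those of the other-replicate difference without replicate 1, the pooled difference in ranks 1 to 5000, and the X difference in ranks 1 to 1000 and 1 to 5000. Promoter summits differed by 9.90 points in ranks 1 to 5000, against 5.98 overall. The median distance to the summit was 19.0 and 93.0 bp with windows of 50 and 200 bp, which follows from the width searched, and 40.0 and 35.0 bp in ranks 1 to 5000 and 1 to 1000. Genes with a site-bearing promoter region numbered 81 in ranks 1 to 5000, against 250, where fewer regions enter. The causes of the other changes were not tested. The alternatives for flanking bases were chosen after seeing the data. No paired analysis was possible because both replicates form a single group. With 45 site-bearing regions at ranks 1 to 1000 of each list, intervals there are wide.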

Other observations

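Words of other factors were counted in the same 201-bp windows of replicate 1, on both strands, as exact letters. The GATA word TGATAA was present in 150 of 631 windows with an AP-1 site (23.8%, 20.5 to 27.3) and in 18.6% (18.2 to 19.0) of windows without, and at ranks 1 to 1000 in 31.1% (18.2 to 46.6) with a site and 25.5% (22.8 to 28.4) without. It shares no bases with the heptamer. The cyclic AMP response element TGACGTCA, which other bZIP dimers bind, was present in 11 windows with a site (1.74%, 0.873 to 3.10) and in 1.08% (0.968 to 1.21) of windows without. The E-box CACGTG, whose ends can share 2 bases with the heptamer, was present in 5.07% (3.49 to 7.08) of windows with a site and 3.87% (3.65 to 4.09) of those without over the whole list. At ranks 1 to 1000 it was present in 2 of 45 windows with a site (4.44%) and 73 of 955 without (7.64%). The C/EBP word TTGCGCAA was present in 1 window with a site (0.158%) and in 93 without (0.317%). A word's presence says nothing of the factor's binding. The median GC content was 36.3% in windows with a site and 35.3% in those without, and its part in these shares was not tested.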
